A study of Mus musculus with 12 samples.

Results

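The carbonic anhydrase genes *Car2*, *Car3*, *Car4*, *Car8*, *Car10*, *Car12*, *Car13* and *Car14* were followed in RNA-seq libraries of the mouse lens at postnatal day 7 (P7). They were chosen by gene symbol and were 8 of the 55487 gene identifiers in the count table. Lenses of 4 *Trpm3* genotypes were compared, with 3 libraries of each, to set the effect of a *Trpm3* missense mutation against that of *Trpm3* deficiency. TRPM3 is a cation channel of the plasma membrane that conducts calcium. The wild-type (WT) mice were C57BL6/J, and all 3 other genotypes were kept on that background. *Trpm3*-I/M mice were heterozygous and *Trpm3*-M/M mice homozygous for a CRISPR/Cas9 knock-in of the I65M substitution, which is counted in the TRPM3 protein and puts methionine in place of isoleucine. *Trpm3*-KO mice, re-derived from frozen embryos, carried an allele made by homologous recombination with a LacZ and neomycin cassette, from which fusion transcripts are still made. Both kinds of allele are germline, and not limited to the lens. Each library was a pool of RNA from 4 male and 4 female lenses, and nothing says which lenses came from the same animal. The mutant genotypes are called KO, I/M and M/M below.

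Carbonic anhydrases catalyze the reversible hydration of carbon dioxide to bicarbonate and a proton, and so set how fast a tissue can move acid and base equivalents. The lens has no blood supply, makes lactic acid by glycolysis and clears it toward the surrounding humors, and carbonic anhydrase inhibitors are given in glaucoma because the ciliary epithelium uses the enzyme to secrete aqueous humor. Catalysis needs a zinc ion that is held by 3 histidines. CAR2, CAR3 and CAR13 are cytosolic enzymes, CAR4 is tethered to the outer face of the plasma membrane by a lipid anchor, and CAR12 and CAR14 cross the membrane with the active site outside. CAR8 and CAR10 belong to the family by sequence but have no catalytic activity. CAR8 binds the inositol trisphosphate receptor ITPR1, a calcium release channel, and CAR10 is a secreted ligand of neurexins.

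The coding sequence shows this division. The windows below are 27 bases of the coding strand, 5′ to 3′, around the codons that aligned to the first and second of the 3 zinc-binding histidines of CAR2, which are in capitals. They were read from the GENCODE transcripts of the reference genome GRCm38.
*Car2*: atccagtttCACtttCACtggggctca
*Car3*: cgccaattcCATcttCACtggggctcc
*Car13*: cggcagttcCATttgCACtgggggtca
*Car4*: gtacagttgCACctgCACtggtcaaat
*Car12*: gagcagctgCACttgCACtgggggaac
*Car14*: gcccagctcCACctgCACtggggtcag
*Car8*: tatgaagttAGAtttCACtggggaaga
*Car10*: gaagaaatcCGGctaCACtttgggagt
The histidine codons CAC or CAT stood at all 3 aligned positions in the 6 catalytic genes. *Car8* had AGA and *Car10* had CGG, both arginine codons, at the first position, and each kept 2 histidine codons. The *Car2* window lies in exon 3 on the plus strand at chr3:14895060-14895086, and the *Car8* window in its exon 3 on the minus strand at chr4:8221604-8221630. Of the other windows, *Car3* is at chr3:14866841-14866867 and *Car13* at chr3:14650697-14650723, each in exon 3. *Car4* is at chr11:84964158-84964184, *Car12* at chr9:66747638-66747664 and *Car14* at chr3:95900300-95900326, each in exon 4, and *Car10* is at chr11:93490597-93490623 in exon 5. *Car8* and *Car14* are on the minus strand and the other 6 genes on the plus strand.

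*Car13*, *Car3* and *Car2* lie beside each other on chromosome 3, within 259044 bases from 14641727 to 14900770 (GRCm38), with *Car1* between them. *Car14* is on the same chromosome at 95897768 to 95904691. *Car8* (chromosome 4, 8143362 to 8239041), *Car12* (chromosome 9, 66713686 to 66766845), *Car4* (chromosome 11, 84957786 to 84966044) and *Car10* (chromosome 11, 93098028 to 93601749) stand apart. *Car14* shares 445 exon bases with *Aph1a*, a gene of the opposite strand that encodes a γ-secretase subunit, and the counting was not stated to use strand, so reads of those bases cannot be told apart.

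Library depth was between 56162169 and 82090198 counts, and was higher in the I/M and M/M libraries than in the WT and KO libraries. *Trpm3* itself was at 268.5 ± 17.3 CPM (counts scaled to the adjusted library size, SD, n = 3 here and for every mean below) in WT, 95.3 ± 5.02 in KO, 386.6 ± 23.4 in I/M and 475.2 ± 8.02 CPM in M/M lenses. In I/M replicate 3, *Xist*, a transcript of the inactive X chromosome, was at 0.0721 CPM, against 45.8 to 304.9 CPM in the other 11 libraries, which goes against the stated pool of both sexes. The I/M results for the members are therefore also given without that library. The libraries of a genotype were described only as biological triplicates, so the p-values measure the spread between these pools. The test of every gene with a count, used for members with few reads, allowed for less of that spread.

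In WT lenses the most abundant of the 8 transcripts was *Car14*. Levels between genes were compared per kilobase of exon, as TPM, which is scaled by exon length and library total. *Car14* was at 15.1, 14.7 and 16.1 TPM in the 3 WT libraries (15.3 ± 0.715), above every other member in each. *Car2* (2.30 ± 0.271 TPM) and *Car8* (2.26 ± 0.254 TPM) came next, and their ranges over the WT libraries overlapped. *Car13* (0.0289 ± 0.00705 TPM), *Car4* (0.0209 ± 0.00697 TPM) and *Car3* (0.00863 ± 0.00878 TPM) rested on 3 or fewer counts a library and overlapped in that order. *Car10* and *Car12* had no count in any WT library.

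TPM is scaled by library total and lacks the library size adjustment of the CPM values, so differences between genotypes are not of the same size in both. *Car2* was at 2.30 TPM in WT and 193.0 TPM in M/M lenses, but at 4.51 and 225.7 CPM. Shares within a library do not depend on this scaling. The summed level of the 8 transcripts was 19.9 ± 0.971 TPM in WT, 17.3 ± 0.709 in KO, 23.2 ± 1.30 in I/M and 206.3 ± 43.7 TPM in M/M lenses. The lowest M/M library was at 156.1 TPM and the highest library of any other genotype at 24.1 TPM. *Car14* made up 76.9% of this sum in WT, 71.4% in KO and 65.7% in I/M, but 5.60% in M/M lenses. The share of *Car2* was 11.5%, 16.6%, 30.7% and 93.5% in the same order. The share of *Car8* was 11.3%, 11.6%, 2.81% and 0.163%. Without I/M replicate 3 the I/M sum was 23.9 TPM, with 65.05% *Car14*, 31.6% *Car2* and 2.64% *Car8*. The catalytic transcript that led in WT lenses was thus a membrane form and that in M/M lenses a cytosolic form, as messenger RNA.

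**Figure D1:**
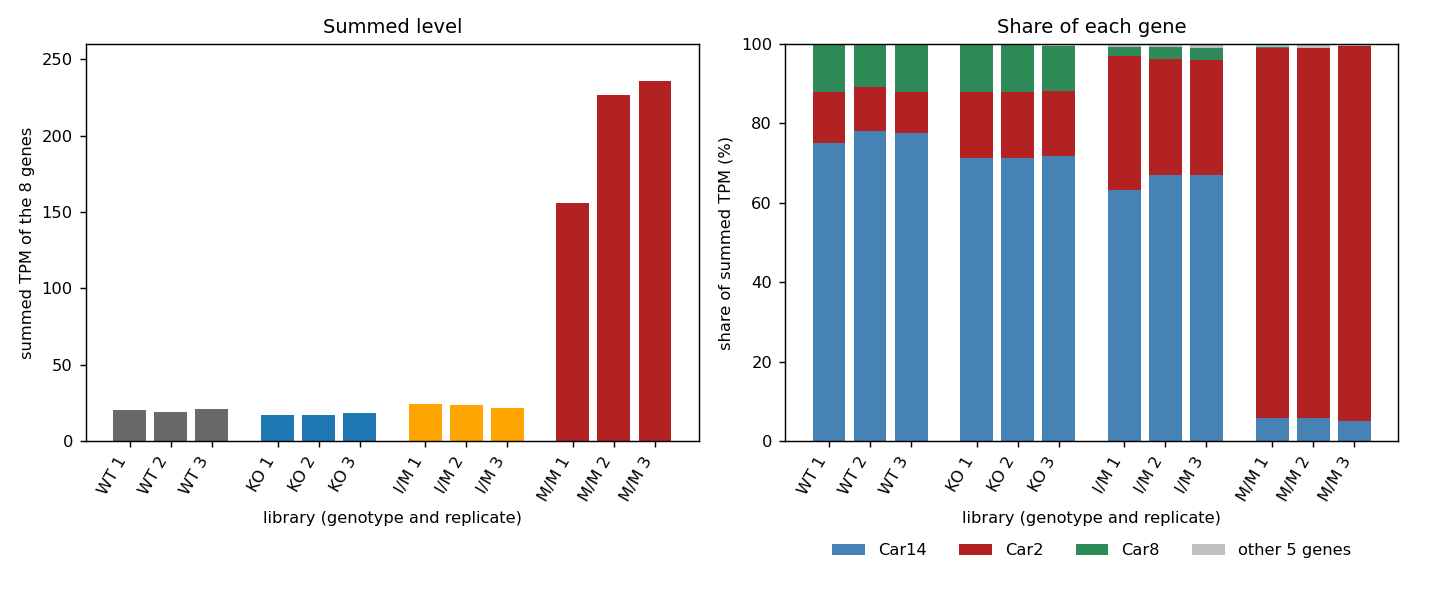
Summed TPM of the 8 carbonic anhydrase genes (left) and the percent share of *Car14*, *Car2*, *Car8* and the other 5 genes in that sum (right) in each of the 12 libraries, with bars starting at 0. The M/M libraries stand between 156.1 and 235.8 TPM and are 93.1% to 94.3% *Car2*, and the WT libraries are 75.0% to 78.0% *Car14*.

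*Car2*, *Car8* and *Car14* reached 5 CPM by the unadjusted library total in at least 3 libraries and were tested, and the other 5 did not. All CPM values printed here use the adjusted library size, so that they differ from those of the filter. *Car14* was past that level in all 12 libraries. *Car2* was past it by that total only in the 6 I/M and M/M libraries and *Car8* only in the 6 WT and KO libraries, so both had to differ between genotypes to be tested, and the counts of called members describe these genes and support nothing further. A gene was called when it changed at least 2-fold with an adjusted p of at most 0.05 (edgeR quasi-likelihood test, Benjamini-Hochberg adjustment over 8984 tested genes). In M/M against WT, 1 member was called higher and 2 lower, where 8.95% of all tested genes were called (6.42% higher and 2.53% lower). In I/M, 1 was higher and 1 lower, beside 3.33% of all tested genes (2.58% and 0.746%). No member was called in KO, beside 0.568% of all tested genes (0.234% and 0.334%). In M/M against I/M, 1 member was higher and 1 lower, beside 4.7% of all tested genes (3.67% and 1.02%). All 3 comparisons with WT share the same 3 WT libraries.

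*Car2* was higher in lenses with the I65M substitution and highest where both alleles carried it. It encodes a fast cytosolic enzyme that is abundant in red blood cells, kidney and ciliary epithelium. It was at 4.94, 4.52 and 4.08 CPM in the WT libraries, and at 5.51, 5.21 and 5.34 CPM in the KO libraries. I/M libraries held 13.2, 11.3 and 10.2 CPM, and M/M libraries 177.6, 248.1 and 251.5 CPM. No library of one genotype overlapped those of another. The rise over WT was 50.01-fold in M/M (log2 fold change 5.64, SE 0.15, edgeR adjusted p = 7.63e-12) and 2.57-fold in I/M lenses (1.36, SE 0.14, adjusted p = 8.46e-06). M/M lenses were 19.5-fold above I/M lenses (4.28, SE 0.14, adjusted p = 2.15e-10). In KO lenses the log2 difference was 0.25 (SE 0.15, edgeR adjusted p = 0.434). Without I/M replicate 3 the I/M difference from WT was 1.44 on the log2 scale (edgeR adjusted p = 1.42e-05) and that of M/M from I/M 4.20 (adjusted p = 4.21e-09). These are whole lenses, so a change in the share of cells of a type and a change in RNA per cell cannot be told apart, here and for every gene below.

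*Car8* changed in the opposite direction. Its product, which lacks the first zinc-binding histidine, binds ITPR1. *Car8* was at 7.10, 6.68 and 7.37 CPM in WT and 6.13, 5.79 and 5.86 CPM in KO libraries. It was at 1.36, 1.90 and 1.77 CPM in I/M and 0.675, 0.672 and 0.451 CPM in M/M libraries. The 4 genotypes formed 4 ranges that did not overlap. The fall from WT was 11.8-fold in M/M (log2 fold change -3.55, SE 0.15, edgeR adjusted p = 3.23e-10) and 4.20-fold in I/M lenses (-2.07, SE 0.13, adjusted p = 1.04e-07). Between these genotypes, M/M lenses were 2.80-fold lower (-1.49, SE 0.16, adjusted p = 6.88e-06). In KO lenses the log2 difference was -0.25 (SE 0.12, edgeR adjusted p = 0.3). Without I/M replicate 3 the I/M difference from WT was -2.11 (edgeR adjusted p = 1.01e-06) and that of M/M from I/M -1.45 (adjusted p = 4.78e-05).

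*Car14*, the transmembrane enzyme that led in WT lenses, fell in M/M lenses by an amount that depended on the scaling. Its smaller differences in I/M and KO lenses depended on the scaling or on single libraries. It was at 30.02, 32.9 and 31.9 CPM in WT and at 11.8, 16.3 and 14.3 CPM in M/M libraries (log2 fold change -1.16, SE 0.09, edgeR adjusted p = 1.04e-07). I/M libraries held 25.9, 27.2 and 24.8 CPM (-0.29, SE 0.09, adjusted p = 0.0222), and KO libraries 24.8, 23.4 and 24.3 CPM (-0.39, SE 0.09, adjusted p = 0.0216). Those differences passed the adjusted p but not the fold threshold. Without a fold threshold 32.6% of all tested genes passed in I/M and 4.36% in KO against WT, 62.7% in M/M against WT and 51.3% in M/M against I/M. For *Car14*, no library of either genotype overlapped the WT libraries. By library total alone the I/M difference was -0.08 (adjusted p = 0.443) and the KO difference -0.34 (adjusted p = 0.0559, edgeR). *Car14* TPM overlapped between WT (14.7 to 16.1) and I/M (14.5 to 15.9). The KO (11.96 to 12.99 TPM) and M/M libraries (9.196 to 13.2 TPM) were below the WT libraries and overlapped each other. The I/M difference missed the adjusted p threshold without I/M replicate 3 (-0.25, edgeR adjusted p = 0.0762), I/M replicate 1 (adjusted p = 0.0549), WT replicate 2 (0.07) or WT replicate 3 (0.0523). The KO difference missed it without any 1 of the KO libraries (edgeR adjusted p 0.0589 to 0.0989), WT replicate 2 (0.0765) or WT replicate 3 (0.0689). M/M lenses were 1.84-fold below I/M lenses (-0.88, SE 0.09, edgeR adjusted p = 3.34e-06), which is under the 2-fold threshold, and the difference without I/M replicate 3 was -0.91 (adjusted p = 1.46e-05). When libraries were scaled by their total alone, the M/M difference was -0.65 and was not called, while the median of all tested genes moved from -0.0042 to 0.50. *Aph1a*, which shares exon bases with *Car14*, was at 28.3 ± 1.07 CPM in WT and 31.3 ± 1.61 CPM in M/M lenses (log2 fold change 0.14, SE 0.05, edgeR adjusted p = 0.018).

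**Figure D2:**
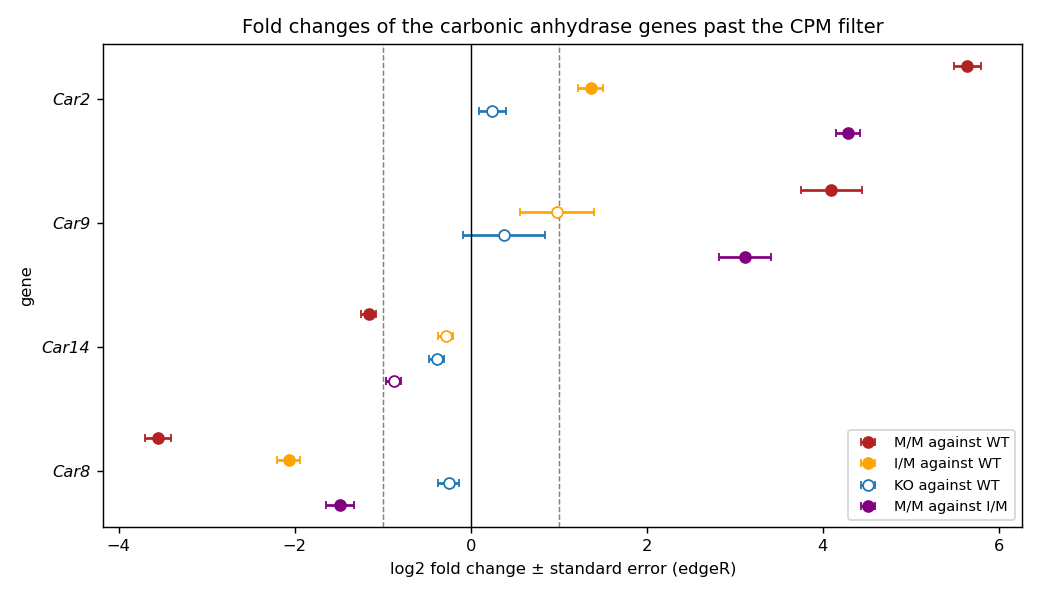
Log2 fold change with its standard error (edgeR) of *Car2*, *Car9*, *Car14* and *Car8*, the carbonic anhydrase genes past the CPM filter, in 4 comparisons of 3 libraries each. Filled points were called and dashed lines mark a 2-fold change; *Car2* reaches 5.64 and *Car8* -3.55 in M/M against WT, and all 4 KO points are open.

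In KO lenses, where edgeR called no member, 1 of the 3 tested members had an unadjusted p under 0.05, and DESeq2 called 0 with 2 at that unadjusted p. The KO libraries did not overlap the WT libraries for 3 of the 8 members, *Car2* above and *Car8* and *Car14* below, beside 12.9% of the genes with at least 1 count. The same count was 6 of 8 for M/M against WT (35.7% of genes), 5 of 8 for I/M against WT (22.4%) and 6 of 8 for M/M against I/M (32.4%). An exact permutation test of a single gene in 3 against 3 libraries cannot give a p below 0.1.

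Of the members with few reads, *Car4*, *Car12* and *Car13* had more counts in M/M libraries than in any other library. *Car4* held 2, 2 and 1 counts in WT, 3, 2 and 2 in KO, 9, 9 and 8 in I/M and 41, 126 and 64 in M/M libraries. The M/M level was 26.4 times the WT level (95% exact interval 11.1 to 82.0, for counting error only), and the I/M level 3.43 times (1.30 to 11.4). No library of I/M or M/M overlapped the WT libraries. When every gene with a count was tested, *Car4* was called in M/M (log2 fold change 4.61, SE 0.48, edgeR adjusted p = 6.93e-21) and in I/M lenses (1.75, SE 0.64, adjusted p = 0.047). In that fit the SE in M/M against WT was 0.08 for *Car2*, 0.14 for *Car8* and 0.07 for *Car14*, in place of 0.15, 0.15 and 0.09. It thus allowed for less spread between libraries, and its adjusted p-values are not comparable with those above. The I/M call of *Car4* was lost without I/M replicate 3 (1.75, edgeR adjusted p = 0.0758), a fit chosen after seeing the data.

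*Car12* had no count in the 3 WT libraries, 0, 1 and 0 counts in KO, 10, 13 and 6 in I/M and 58, 42 and 29 in M/M libraries. A count of 0 allows up to 3 counts in a library, or 0.0605 CPM on average in WT, so *Car12* was at least 8.31-fold higher in M/M and at least 2.09-fold higher in I/M than in WT lenses. The ratio of M/M to I/M was 3.85 (2.56 to 5.98). In the test of every gene it was called in M/M (edgeR adjusted p = 5.57e-16) and I/M lenses (adjusted p = 1.05e-05, or 6.51e-06 without I/M replicate 3).

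*Car13*, the cytosolic neighbor of *Car2*, held 3, 2 and 3 counts in WT, 3, 1 and 3 in KO, 5, 3 and 6 in I/M and 36, 48 and 31 in M/M libraries. Its M/M level was 8.21 times that of WT (4.03 to 19.5), and its I/M level 1.15 times (0.452 to 3.18), an interval that includes no difference. M/M libraries stood above all others and the other genotypes overlapped. In the test of every gene it was called in M/M lenses (2.98, SE 0.53, edgeR adjusted p = 1.78e-07). *Car3*, the low-activity enzyme of muscle and adipose tissue, lies between *Car13* and *Car2* and did not differ detectably at this depth. It held 2, 1 and 0 counts in WT, 0, 3 and 2 in KO, 2, 2 and 4 in I/M and 0, 11 and 1 in M/M libraries, a ratio of 2.28 (0.616 to 12.6) for M/M against WT. *Car10* had 1 count in I/M replicate 3, 6 in M/M replicate 1, 1 in M/M replicate 2 and 0 in the other 9 libraries.

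**Figure D3:**
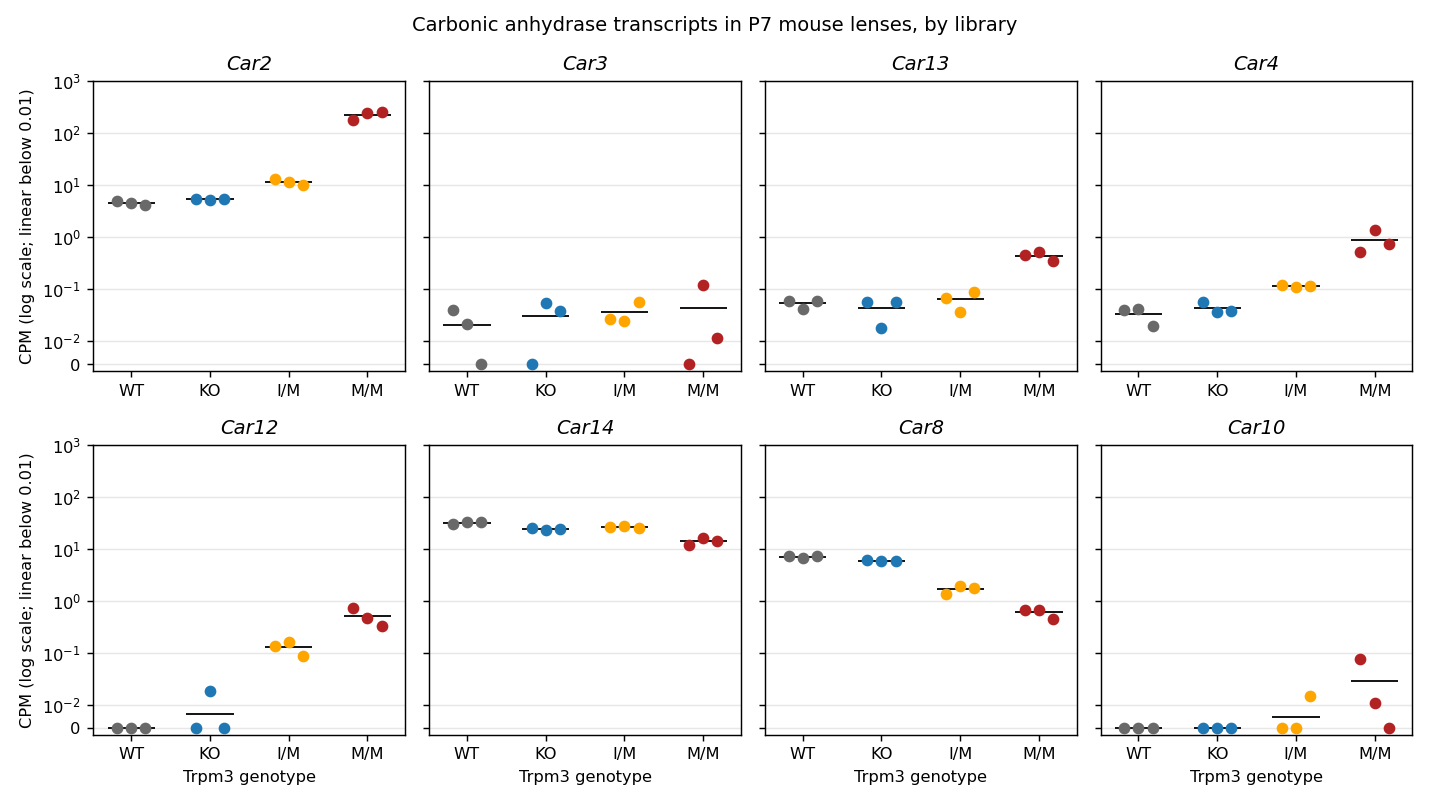
Level of each of the 8 carbonic anhydrase genes in CPM (log scale, linear below 0.01 so that 0 can be shown) in 12 libraries by *Trpm3* genotype, with points for libraries and lines for means. *Car2*, *Car13*, *Car4* and *Car12* are highest in the M/M libraries, *Car14* and *Car8* are lowest there, and *Car3* and *Car10* overlap between genotypes.

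With every gene tested, 6 of the 8 members were called in M/M against WT, 4 higher and 2 lower, beside 10.7% of all genes with a count, and 4 of the 8 in I/M against WT, beside 3.77%. In KO against WT it was 0 of 8, beside 1.06%, and in M/M against I/M 5 of 8, beside 7.24%. These counts come from the fit that allowed for less spread between libraries. All 4 that rose in M/M lenses, *Car2*, *Car4*, *Car12* and *Car13*, have the 3 histidine codons, as does *Car14*, which fell.

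The promoter sequences of *Car4* and *Car12*, which rose, and of *Car14*, which fell, are printed because these 3 encode the members whose active site faces outside the cell. Each covers 250 bases before to 50 bases after the gene's start on its own strand (RefSeq, GRCm38.p6), at chr11:84957504-84957803 on the plus strand, chr9:66713436-66713735 on the plus strand and chr3:95904636-95904935 on the minus strand in that order. Capitals mark matches on either strand of TATAAA, the GC box GGGCGG, the AP-1 site TGANTCA, the hypoxia core ACGTG and the cAMP response element TGACGTCA, none of which contains another.
*Car4*: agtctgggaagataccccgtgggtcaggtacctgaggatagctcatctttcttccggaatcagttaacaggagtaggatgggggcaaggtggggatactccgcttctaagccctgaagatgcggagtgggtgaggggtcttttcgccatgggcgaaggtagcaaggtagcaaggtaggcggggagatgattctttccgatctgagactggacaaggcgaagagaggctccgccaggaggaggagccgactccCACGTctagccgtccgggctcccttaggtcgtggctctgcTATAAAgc
*Car12*: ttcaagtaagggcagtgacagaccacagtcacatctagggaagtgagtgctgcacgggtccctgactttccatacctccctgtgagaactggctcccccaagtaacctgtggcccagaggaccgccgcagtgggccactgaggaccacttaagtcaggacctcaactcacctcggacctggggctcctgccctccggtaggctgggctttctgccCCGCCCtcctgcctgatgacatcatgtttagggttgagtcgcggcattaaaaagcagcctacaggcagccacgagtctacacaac
*Car14*: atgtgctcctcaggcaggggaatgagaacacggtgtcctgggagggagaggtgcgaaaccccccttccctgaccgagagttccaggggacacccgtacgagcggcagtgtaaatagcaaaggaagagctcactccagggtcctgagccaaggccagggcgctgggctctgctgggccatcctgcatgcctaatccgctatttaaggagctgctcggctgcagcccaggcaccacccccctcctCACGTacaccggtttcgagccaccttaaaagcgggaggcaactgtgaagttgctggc
*Car4* held 1 TATAAA and 1 ACGTG, *Car12* 1 GGGCGG and *Car14* 1 ACGTG. Of 32851 promoters of the same length, 13.6% held TATAAA, 35.7% GGGCGG, 7.81% TGANTCA, 19.6% ACGTG and 1.79% TGACGTCA. No motif was present in all 3 windows.

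Of the other 8 genes of the family, *Car9*, a transmembrane enzyme known as a target of the hypoxia response, was the one past the CPM filter, which it passed through the M/M libraries alone. It was at 0.531, 0.462 and 0.575 CPM in WT, 0.673, 0.543 and 0.827 in KO, 1.63, 0.936 and 0.519 in I/M and 6.56, 12.03 and 8.34 CPM in M/M libraries. The M/M libraries stood above all others and I/M overlapped WT. It was higher in M/M than in WT (log2 fold change 4.10, SE 0.35, edgeR adjusted p = 3.05e-07), and the I/M difference was 0.98 (SE 0.42, adjusted p = 0.0938). Without I/M replicate 3 the latter was 1.28 (edgeR adjusted p = 0.0196). The antisense gene *Gm12454* shares 214 exon bases with *Car9*. Further, *Gm20518* shares 1253 exon bases with *Car15* and *BC048644* shares 314 with *Car5a*, and reads of those bases cannot be told apart. *Car5b*, a mitochondrial enzyme, went from 25 counts over the WT libraries to 310 over the M/M libraries, 7.08 times the level (4.71 to 11.1). *Car11*, a further acatalytic member, had 1.86 times the WT level (1.64 to 2.12). *Car5a*, *Car6*, *Car7* and *Car15* were between 0.00405 and 0.407 CPM on average in every genotype. *Car15* was at 0.407 ± 0.0374 CPM in KO and 0.196 ± 0.0776 CPM in WT lenses, 2.09 times the level (1.33 to 3.36). In the test of every gene it was not called in KO lenses (log2 fold change 1.05, SE 0.39, edgeR adjusted p = 0.139). *Car1*, which lies between *Car13* and *Car3* and is abundant in red blood cells, had no count in any library.

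Genes that move acid, base and carbon dioxide were listed by family: 92 genes, of which 38 were tested. In M/M against WT 6 rose and 1 fell, 18.4% of the 38 where 8.95% of all tested genes were called, with a median log2 fold change of 0.36 over the 38 beside -0.0042 over all tested genes. The calls included *Car9* above. *Tcirg1*, a subunit of the vacuolar proton pump, rose from 1.67 ± 0.321 to 7.18 ± 0.321 CPM (log2 fold change 2.10, SE 0.14, edgeR adjusted p = 3.33e-08). *Aqp1*, a channel for water and carbon dioxide, rose from 9.15 ± 1.17 to 28.0 ± 1.15 CPM (1.61, SE 0.14, edgeR adjusted p = 3.89e-07). *Slc16a3*, which exports lactate with a proton, rose from 16.7 ± 2.00 to 38.6 ± 4.70 CPM (1.22, SE 0.11, edgeR adjusted p = 4.25e-07). *Slc9a3r2*, a scaffold of sodium-proton exchangers, rose by 1.40 and *Ptprg*, a receptor phosphatase with a carbonic anhydrase-like domain, by 1.49 on the log2 scale. *Slc4a4*, the sodium bicarbonate cotransporter, fell from 15.4 ± 0.761 to 7.28 ± 0.389 CPM (-1.09, SE 0.10, edgeR adjusted p = 4.07e-07), and its I/M level of 7.81 ± 0.837 CPM differed from WT by -0.98 (adjusted p = 4.42e-06, under the fold threshold) and from M/M by less than could be called (M/M against I/M -0.10, SE 0.10, adjusted p = 0.401). With libraries scaled by their total alone the M/M fall of *Slc4a4* was -0.58 and was not called. *Tcirg1*, *Slc9a3r2* and *Car9* passed the CPM filter through the M/M libraries alone and so had to differ, and the count of calls supports nothing further.

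Fewer genes of the list were called in the other comparisons. In I/M against WT, *Slc16a1*, another lactate and proton cotransporter, was the 1 call (2.63% of the 38, beside 3.33% of all tested genes), and fell from 12.1 ± 0.850 to 4.83 ± 0.790 CPM (log2 fold change -1.33, SE 0.11, edgeR adjusted p = 9.44e-07, or -1.29 without I/M replicate 3 with adjusted p = 9.46e-06). In KO against WT the 1 call (2.63%, beside 0.568%) was *Slc26a11*, an anion exchanger that passed the filter through the KO libraries alone and so had to differ. It rose from 2.77 ± 0.819 to 7.13 ± 1.36 CPM (1.36, SE 0.20, edgeR adjusted p = 0.00113). The medians over the 38 genes were 0.12 in I/M and 0.03 in KO lenses. In M/M against I/M, 4 genes rose (10.5%, beside 4.7%), *Tcirg1* (1.48), *Aqp1* (1.47), *Car9* (3.12) and *Itpr3* (1.20), an inositol trisphosphate receptor, and the median was 0.21. Of the partners of CAR8 and CAR10 on the list, 3 of 6 were tested and none was called against WT, with 0 called by edgeR in each of the 3 comparisons.

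Over the 12 libraries, the tested genes whose log2 CPM followed *Car2* most closely were *Gpi1*, the glycolytic enzyme glucose-6-phosphate isomerase (Pearson r = 0.997), and *Mgat4b*, an enzyme of glycan branching (r = 0.997). *Gpi1* was at 88.4 CPM in WT and 194.7 CPM in M/M lenses. For *Car8* they were *Rsad2*, an interferon-induced enzyme (r = 0.994), and *Ngef*, a guanine nucleotide exchange factor (r = 0.994), and for *Car14* they were *Mtmr7* (r = 0.981) and *Fstl1* (r = 0.979). *Rsad2* was at 17.8, 14.8, 3.62 and 0.921 CPM in WT, KO, I/M and M/M lenses. Over the same libraries r was -0.93 between *Car2* and *Car8*, and 0.82 between *Car8* and *Car14*. These values describe libraries that share genotype groups and scaling.

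Markers of some other cell types moved with the genotypes. The summed CPM of 9 vascular endothelial markers was 5.90 to 8.29 in WT, 6.12 to 7.0 in KO, 18.7 to 27.2 in I/M and 59.3 to 69.6 in M/M libraries, with 6 of the 9 called higher in M/M lenses. That of 10 macrophage markers, none past the CPM filter, was 0.436 to 0.688 in WT, 0.344 to 0.467 in KO, 1.20 to 1.25 in I/M and 9.31 to 17.7 in M/M libraries. That of 9 pericyte and fibroblast markers was 92.1 to 100.98 CPM in WT, 78.8 to 85.0 in KO, 84.9 to 93.9 in I/M and 141.7 to 195.5 CPM in M/M libraries, with 4 of the 9 called higher and 1 lower in M/M lenses. Most of the WT sum was *Pdgfra*, the 1 called lower, at 79.4 CPM in WT, 65.9 in I/M and 39.0 in M/M lenses. Of the 4 called higher, *Rgs5* was at 0.507, 5.99 and 31.1 CPM and *Col1a1* at 0.128, 0.337 and 54.3 ± 23.3 CPM in the same order. That of 5 corneal markers, of which *Kera* was at 0 in every library, was 0.236 to 0.436 in WT and 3.66 to 6.72 CPM in M/M libraries. Most of the M/M sum was *Aldh3a1*, at 0.302 CPM in WT and 4.32 CPM in M/M lenses. In M/M lenses *Krt12* was at 0.00376, *Krt5* at 0.424 ± 0.666 and *Krt14* at 0.193 CPM. The 8 retinal neuron markers summed to 4.02 to 5.01 CPM in WT and 7.73 to 8.59 CPM in M/M libraries. Of these *Gad1* rose from 0.216 to 4.25 CPM and *Elavl4* fell from 2.17 to 0.513 CPM. The 9 photoreceptor markers summed to 1.26 to 1.45 and 1.89 to 5.09 CPM, and the 8 pigmented cell markers to 5.99 to 6.63 and 3.01 to 3.58 CPM. Most of the latter fall was *Oca2*, at 3.01 CPM in WT and 0.0577 CPM in M/M lenses. *Tyrp1* was at 2.25 and 1.92 CPM and *Dct* at 0.194 and 0.423 CPM. No marker of the retinal neuron, photoreceptor and pigmented cell lists was past the CPM filter. The part of all these cell types in the results for *Car2*, *Car4*, *Car12*, *Car13* and *Car9* was not tested.

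Of the cell types known for *Car2*, 9 red blood cell markers summed to 1.36 to 12.1 CPM in WT and 12.5 to 15.1 CPM in M/M libraries, with *Car1* at 0 in all 12. The 6 Müller glia markers, mostly *Dkk3*, summed to 1643 to 1719 CPM in WT and 1685 to 1759 CPM in M/M libraries, which overlap. Among them *Glul* and *Kcnj10* were called higher in M/M lenses, and *Aqp4* was at 6.33 and 5.54 CPM in WT and M/M. *Glul* was at 7.28 ± 0.351 CPM in WT and 21.3 ± 0.374 CPM in M/M lenses, while *Rlbp1* was at 0.188 and 0.757 CPM. The 5 ciliary epithelium markers summed to 6.29 to 7.08 and 7.66 to 8.83 CPM, of which *Aqp4* made up most, and *Optc* was at 0.159 and 1.33 CPM. The 10 lens fiber markers, *Mip* and *Lim2* among them, summed to 33440 to 35760 CPM in WT and 17470 to 20220 CPM in M/M libraries, and the 6 lens epithelium markers to 410.9 to 447.0 and 284.5 to 305.8 CPM. Both sums were lower in M/M lenses, with 2 of the 10 and 2 of the 6 markers called lower and none higher. *Cdh1* was at 58.6 and 56.6 CPM and *Npnt* at 94.0 and 124.9 CPM in WT and M/M lenses. The part of these cells in the results for *Car14* and *Car8* was not tested. The 7 skeletal muscle markers, in the tissue known for *Car3*, summed to 5.96 to 7.04 CPM in WT and 5.03 to 5.74 CPM in M/M libraries.

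**Figure D4:**
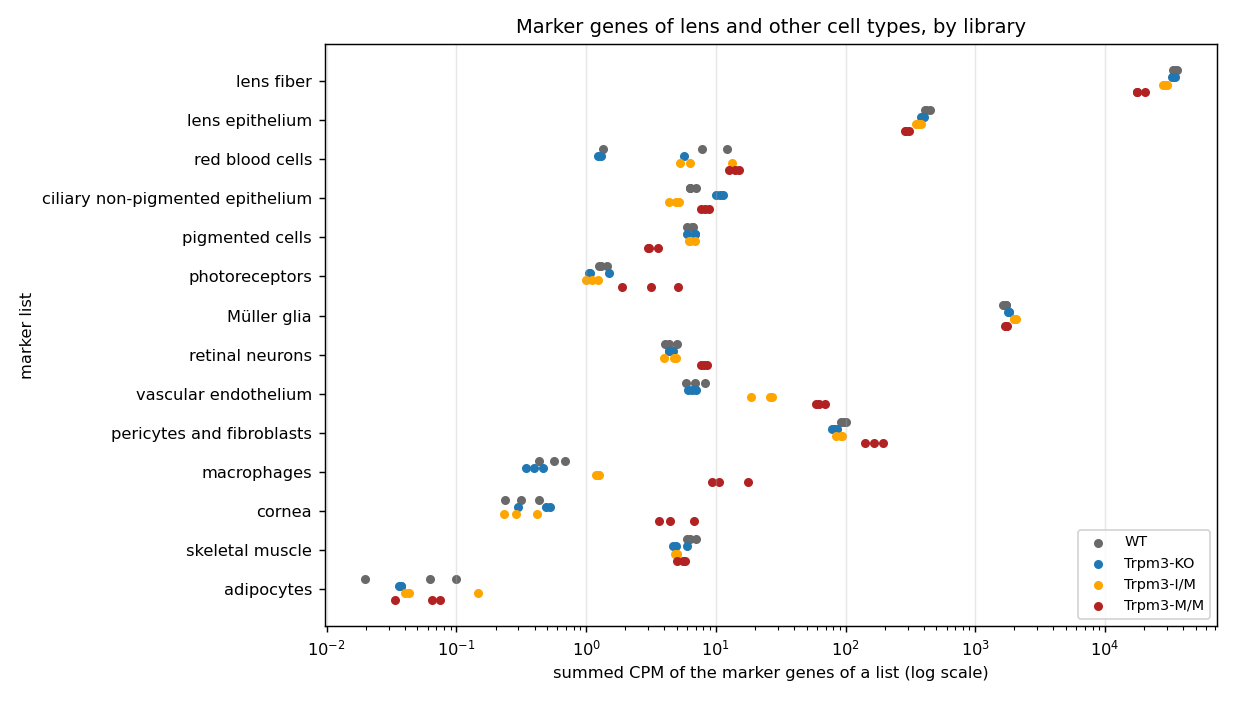
Summed CPM of the marker genes of 14 cell types (log scale) in each library, colored by *Trpm3* genotype. Lens fiber markers are the most abundant in every library, and the vascular endothelium sums are 5.90 to 8.29 CPM in WT and 59.3 to 69.6 CPM in M/M libraries.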

How the data were processed

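Poly-A RNA of P7 lenses was made into TruSeq libraries and sequenced on an Illumina instrument. The authors called bases with bcl2fastq2 version 2.20 and aligned and counted the reads with DRAGEN version 3.9.3-8 on the Ensembl release 101 assembly, and the submitters' processing notes name the mm10 build (GRCm38). The deposited table holds estimated counts per gene, unnormalized, of which 88.4% are whole numbers. They were rounded before testing, whereas whole counts had been assumed when the tests were fixed. Of the identifiers, 168 were listed more than once and were kept once. Deposited columns of the authors' comparisons (fold changes and p-values) were not used. The counting was not stated to use strand, so reads of overlapping genes cannot be assigned.

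Genes with at least 5 CPM by unadjusted library total in at least 3 of 12 libraries were kept (8984). TMM factors and the quasi-likelihood test of edgeR 4.0.16 (R 4.3.3) were applied to all 12 libraries in 1 fit by genotype, and p-values were adjusted over all tested genes by Benjamini-Hochberg. CPM values use TMM-scaled library sizes. TPM was computed from the counts and the union of exons in GENCODE, and the prior count for log2 CPM was 2. By adjusted p alone, edgeR found 66 of 67 genes simulated at 2-fold, 67 of 67 at 3-fold and 66 of 66 at 4-fold. These counts are for M/M against WT on 8984 genes. There were 8 false calls by adjusted p and 0 with the 2-fold threshold. The number found with that threshold was not tested. The changed genes were drawn only from those with higher average counts, which *Car8* and *Car9* did not reach, so the recovery does not cover genes with few reads. Members below the filter were compared by the ratio of summed counts per scaled library size, with exact 95% intervals that cover counting error only. Alternatives were another scaling, DESeq2 1.42.0, other filters and call rules, a replicate block, and leaving out each library. A fit of every gene without I/M replicate 3 was added after seeing the data.

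The text names every member, every other family gene and the listed acid-base genes called in any comparison. It also names the 2 tested genes most alike to each called member, genes that share exon bases with a family gene, *Trpm3* and *Xist*. Cell type markers named singly, beyond the most abundant of a list, were picked after their values were seen. The members and lists were chosen with earlier results of these data known. Protein sequences were not used here, and the aligned codons stand in their place. A RefSeq promoter was matched for 4 of the 8 members.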

Additional observations from a re-analysis of the deposited data

How the results depend on the processing

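Of 513 log2 fold changes of tested genes under another setting, 508 kept their direction and side of the threshold, and none reversed. With libraries scaled by their total alone, the M/M differences of *Car14* (-0.65) and *Slc4a4* (-0.58) fell under the fold threshold. The I/M difference of *Car9*, 0.98 and not called, was called at 1.18 by library total, at 1.00 with no filter and at 1.28 without I/M replicate 3. With no filter its difference hardly moved, but its SE was 0.19 in place of 0.42. Without a filter on low counts, 6 members were called in M/M against WT, 4 in I/M against WT and 5 in M/M against I/M, in place of 3, 2 and 2, because members with few reads then enter the test. With no fold threshold, 1 member passed in KO lenses, in place of 0.

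Called acid-base genes in M/M against WT were 7, and 14 by library total, 12 at 1 CPM, 16 with no filter and 33 with no fold threshold. In I/M against WT they were 1, and 3, 3, 5 and 19 under those settings. In KO they were 1, and 2 at 1 CPM, 2 with no filter and 3 with no fold threshold. In M/M against I/M they were 4, and 8, 16 and 25 under the same 3. Over all tested genes, calls in M/M against WT went from 804 to 1354 by library total, with 94.3% of calls higher in place of 71.8%, and to 1634 at 1 CPM, 3455 with no filter and 5637 with no fold threshold. In I/M against WT they went from 299 to 663, 1215 and 2929 under the latter 3, in KO from 51 to 103, 343 and 392, and in M/M against I/M from 422 to 1009, 2335 and 4608. More genes entered the test with a looser filter or none, but *Car9* in I/M against WT had been tested before it was called with no filter. The cause was otherwise not tested.

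Leaving out each library in turn left 3, 2, 0 and 2 called members in the 4 comparisons (M/M, I/M and KO against WT, then M/M against I/M). The acid-base calls ranged from 7 to 8, 1 to 2, 1 to 1 and 4 to 4 in the same order, with 2 in I/M lenses without WT replicate 2, WT replicate 3, I/M replicate 2 or I/M replicate 3. The replicate numbers did not pair the samples: deviations of 18 same-numbered pairs correlated at -0.264 to 0.149, 2 of them over 0.1. With the replicate number as a block, 3, 2, 0 and 2 members, 7, 1, 1 and 4 acid-base genes and 806, 300, 51 and 422 of all genes were called in the 4 comparisons, and no call of *Car2*, *Car8*, *Car14*, *Car9* or a called acid-base gene changed. Depth limits *Car3*, *Car4*, *Car10*, *Car12* and *Car13*, which rest on few counts in WT lenses.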
